A study of Chrysanthemum x morifolium with 6 samples.

Results

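ZAT and AZF proteins are plant zinc finger proteins of the C2H2 type (finger domains held by pairs of cysteines and histidines). The members described here are the 46 assembled sequence clusters of the deposited regulator table that the authors put in the C2H2 family and whose best Swiss-Prot match is a zinc finger protein named ZAT or AZF with a number. They were 46 of 10744 clusters in the table and 46 of its 718 C2H2 clusters. Grouped by the name of the match, 10 clusters were ZAT5, 10 ZAT10, 7 ZAT9, 6 ZAT11, 4 ZAT6, 4 ZAT12, 2 ZAT3, 2 ZAT4 and 1 AZF2. A name is that of the best match and does not make a cluster the ortholog of that gene. All 46 carried a C2H2 domain among their Pfam matches.

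The libraries came from roots of 1-month-old seedlings of the chrysanthemum (Chrysanthemum x morifolium) cultivar jinba, a single cultivar with no mutant or transgenic line. Salt seedlings were watered with 100 mM salt water, control seedlings with purified water, and roots of both were taken 24 h after treatment. Each treatment has 3 libraries that the labels give as biological replicates, and the labels do not say how many seedlings went into each. The question put by the design is which root transcripts differ after salt.

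In Arabidopsis, ZAT and AZF proteins carry C2H2 fingers and, in many members, a short EAR motif through which they recruit corepressors and repress transcription. Several of their genes are induced within hours of salt, drought, cold, abscisic acid or reactive oxygen, and then limit or tune the response. ZAT10, also called STZ for salt tolerance zinc finger, was first isolated for raising the salt tolerance of yeast. ZAT12 is a marker of reactive oxygen signalling.

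The libraries held 14.5 ± 1.68 M fragments (M for mega) in salt and 17.4 ± 2.35 M in control (SD, n = 3 each). In salt 2.79 ± 0.562% of the table's counts lay on clusters whose best NR match was an oomycete, an alga or a protist, against 0.395 ± 0.0153% in control, and the part of that RNA in the results was not tested. Clusters with flowering-plant matches held 83.7 ± 2.66% of the table's counts in salt and 91.4 ± 0.0681% in control. Most of the remaining counts lay on clusters of neither kind. The root regulators listed as tissue markers summed to 47.5 to 57.0 FPKM in salt and 73.7 to 83.5 FPKM in control, from 6 of 11 listed genes with a cluster. These did not move as a group. SHR, SMB and BHLH83 were lower in every salt library, while SCR and WOX5 overlapped between the groups. PLT2 was higher, at 3.71 to 5.50 FPKM in salt and 1.44 to 2.04 FPKM in control. The listed shoot regulators summed to 0.86 to 6.69 FPKM in salt and 1.57 to 1.98 FPKM in control, from 4 of 9 genes. PLT1 and MYB36 among the root genes and SPCH, FAMA and LFY among the shoot genes matched no cluster under any listed name. In such whole-root samples fewer cells of a type and less RNA per cell cannot be told apart.

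Levels are given as CPM (counts in 1e6 of the effective library size), which was scaled by TMM over the FPKM of all assembled clusters. Because salt libraries held more counts on oomycete, alga and protist matches, every change was also computed with a plant-matched scaling. It used only the 6552 clusters of the regulator table with flowering-plant matches, and not all 469059 assembled clusters. The scalings thus differ in the kind of gene as well as in plant origin, and these parts were not tested apart. The plant-matched scaling moved the median change over the whole tested set by 0.51 in log2 terms, to 0.15 against -0.37 with all clusters. A small change can therefore turn sign between the scalings. All 46 members had flowering-plant matches. Differences were tested with edgeR's quasi-likelihood test and called at a Benjamini-Hochberg adjusted p under 0.05 over the whole table.

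The most abundant ZAT transcripts moved in different directions. Clusters named ZAT10 fell in salt with 8 of 9 tested clusters called lower, 4 of them also with plant-matched scaling, and the main ZAT11 cluster rose. The ZAT12 sum was not called with all-cluster scaling but was called higher with plant-matched scaling. ZAT9 and the sum of the 10 sparse ZAT5 clusters fell, and the direction of ZAT6 turned with the scaling. Of the 46 members, 25 passed the filter on low counts: 9 ZAT10, 5 ZAT11, 4 ZAT6, 4 ZAT12, 2 ZAT9 and 1 ZAT5. Among them 1 was called higher and 12 lower in salt, with all-cluster scaling. Over the whole table, 23.9% of 5284 tested clusters were called higher and 29.3% lower. For the 3787 tested plant-matched clusters other than members the shares were 12.1% and 35.6%. With plant-matched scaling 9 members were called higher and 6 lower, against 33.2% and 16.9% of 5257 clusters. The plant-matched clusters other than members then had 21.2% called higher and 20.8% lower. With size factors from DESeq2, 3 members were called higher and 9 lower, against 1526 higher and 1143 lower of 5247 clusters of the whole table. Both the all-cluster and the plant-matched scaling gave the same call for 1 higher and 6 lower members, and 2 members, both ZAT6, were lower by the first and higher by the second.

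The changes were small for most members. Only 3 called members changed 2-fold or more, all lower in salt: 2 ZAT10 clusters and 1 ZAT9 cluster. The median log2 fold change of the 25 was -0.34, close to the -0.37 of all tested clusters, and 11 of them lay below that median. It was above the -0.63 of the tested plant-matched clusters other than members. With plant-matched scaling the medians were 0.12 for members, 0.15 for all tested clusters and -0.15 for the plant-matched clusters other than members. The 2 groups of libraries did not overlap in CPM for 13 tested members that were lower and 2 that were higher in salt. The same was seen for 39.6% and 27.6% of all tested clusters.

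**Figure D1:**
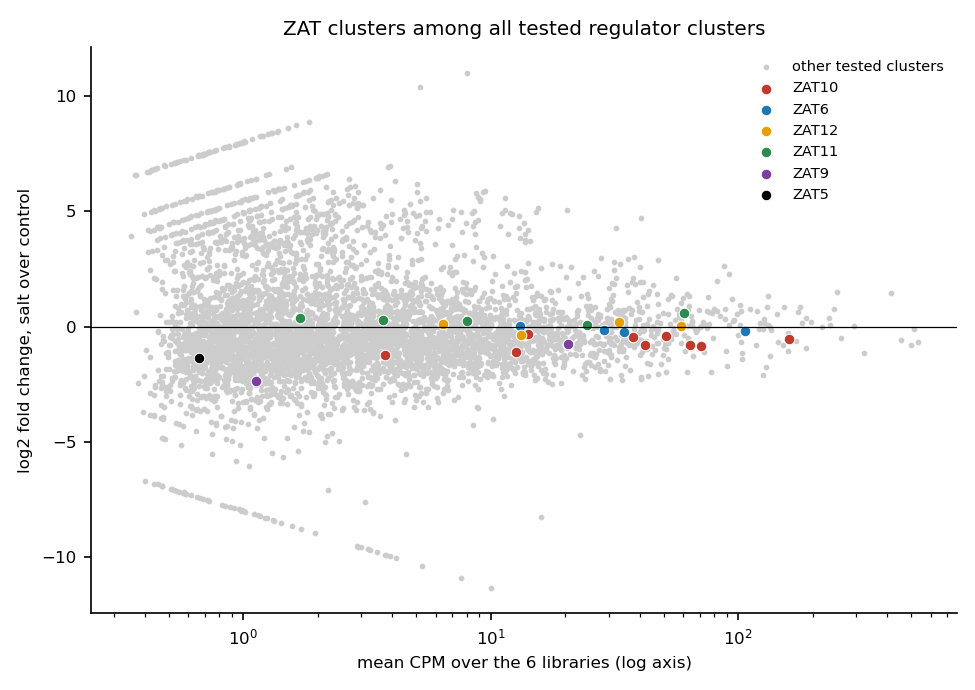
Mean CPM over the 6 libraries (horizontal log axis) against the log2 fold change of salt over control (vertical axis) for all 5284 tested clusters, with the 25 tested ZAT clusters coloured by name. The ZAT clusters lie within a wide cloud, between -2.34 and 0.59, with ZAT10 below the line and ZAT11 above it. With plant-matched scaling 3 of the 9 ZAT10 clusters lie above 0. The slanted streaks of grey points at the edges are sparse clusters with counts of 0 or nearly 0 in one group.

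Per length, the names fell into an abundant and a sparse set. Summed FPKM in salt was 671 ± 23.0 for ZAT10, 416 ± 78.0 for ZAT12, 380 ± 40.9 for ZAT6 and 275 ± 45.7 for ZAT11 (SD, n = 3). In control it was 1116 ± 4.29 for ZAT10, 458 ± 8.39 for ZAT6, 448 ± 23.7 for ZAT12 and 253 ± 7.52 for ZAT11. ZAT12 and ZAT6 exchanged places between the groups, and their levels differed by less than their spread in both. The other 5 names were far below them, with ZAT9 at 8.72 ± 1.20 FPKM in salt and 15.8 ± 0.607 FPKM in control, and ZAT5 at 1.56 ± 0.720 FPKM in salt and 7.19 ± 1.54 FPKM in control. ZAT3, ZAT4 and AZF2 stayed under 1.3 FPKM in both group means, and their neighbours in that order were not separated by their spread. FPKM of the shortest clusters is inflated, because the deposited values divide by a length about 240 bases short of the cluster's own.

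**Figure D2:**
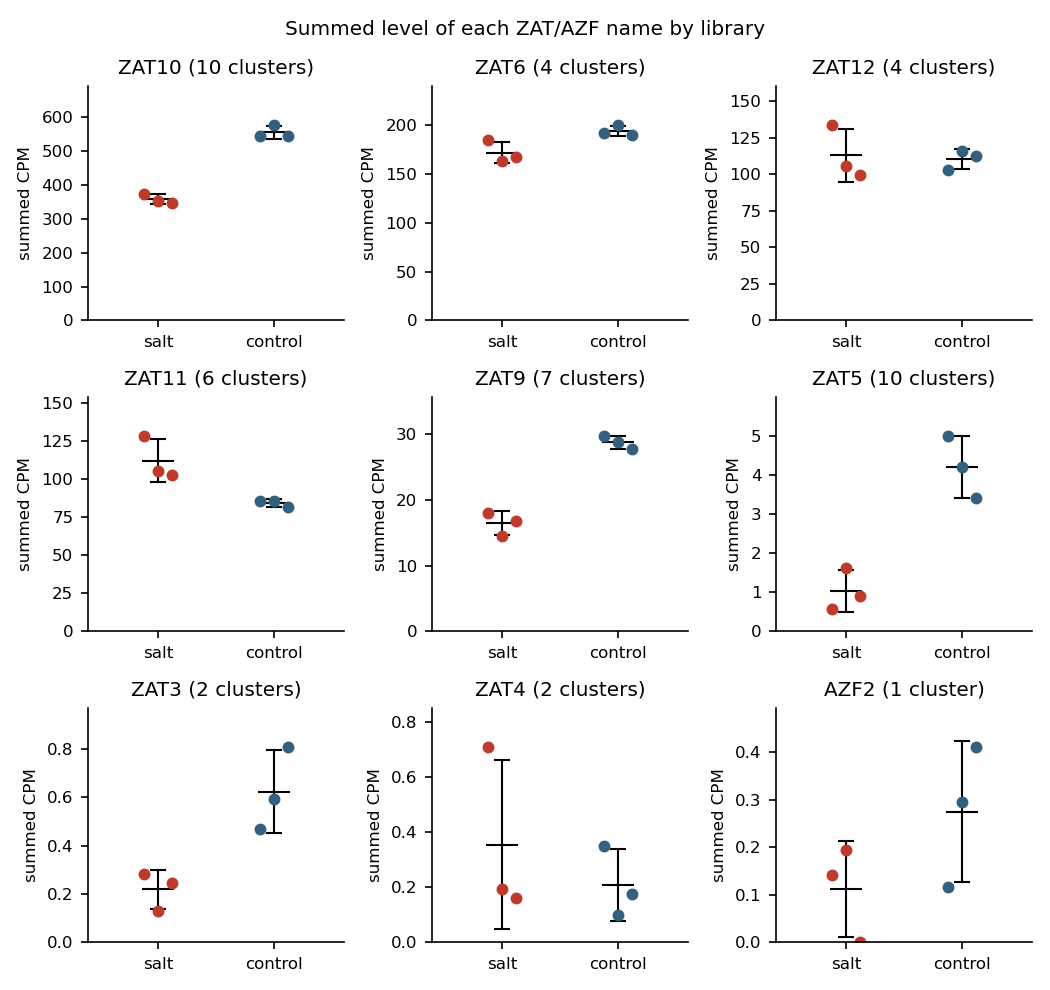
Summed CPM of all clusters of each name (vertical axes, each from 0 and each with its own range) in the 3 salt and 3 control libraries, with 1 point per library and the mean ± SD in black. The groups lie apart for ZAT10, ZAT9, ZAT5, ZAT3 and, narrowly, ZAT6, all lower in salt, and for ZAT11, higher in salt. Scaled to plant-matched clusters instead, ZAT6 turns and is higher in salt.

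ZAT10 made up the largest share of the ZAT and AZF counts and fell in salt. Its 10 clusters summed to 375, 353 and 347 CPM in salt 1 to 3 and to 546, 577 and 545 CPM in control 1 to 3. Every salt library was below every control library. On the log2 scale the sum fell by 0.63 (standard error 0.05, adjusted p = 1.4e-05 by edgeR). Scaled to plant-matched clusters it still fell, by 0.17 (adjusted p = 9.7e-04). Over all units tested in this way 36.5% of 2259 were called higher and 37.5% lower, or 47.3% and 23.3% of 2281 with plant-matched scaling. These units are sums per name plus single clusters without a gene name, with or without plant matches. Among the 6 ZAT names with enough counts 1 sum was called higher and 4 lower, or 3 and 3 with plant-matched scaling and likewise 3 and 3 with DESeq2 size factors. Over all such units DESeq2 size factors gave 973 higher and 653 lower of 2262.

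The most abundant ZAT10 cluster, Cluster-71316.164846 with 1051 bases, had 144, 119 and 133 CPM in salt and 189, 196 and 186 CPM in control. It was lower in all 3 salt libraries and fell by 0.53 in log2 terms (standard error 0.08, adjusted p = 0.0021 by edgeR), a call that was lost with plant-matched scaling (log2 fold change -0.07, adjusted p = 0.33). Cluster-71316.66420 had 8.81, 7.60 and 7.64 CPM in salt against 17.9, 16.0 and 17.9 CPM in control. Its groups lay well apart, and it fell under both scalings, by 1.11 with all clusters (standard error 0.12, adjusted p = 6.3e-04 by edgeR) and by 0.65 with plant-matched ones (adjusted p = 0.0035). Cluster-71316.110156 had 2.34, 2.40 and 1.87 CPM in salt against 3.87, 6.41 and 5.52 CPM in control. It too was lower in every salt library, and it fell by 1.25 (standard error 0.27, adjusted p = 0.0084 by edgeR).

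The other ZAT10 clusters with calls shared the direction. Cluster-71316.158143 had 52.2, 51.4 and 46.9 CPM in salt and 86.7, 96.0 and 90.3 CPM in control, and Cluster-71316.165147 had 31.4, 33.2 and 28.4 CPM in salt and 51.7, 56.3 and 52.2 CPM in control. Both fell under both scalings, by 0.86 and 0.79 on the log2 scale with all clusters. Cluster-71316.141878, whose nucleotide match is the chrysanthemum ZFP3 cDNA, had 40.5, 52.8 and 46.1 CPM in salt and 82.0, 85.8 and 76.3 CPM in control. Cluster-71316.156756 and Cluster-71316.169026 fell least, by 0.40 and 0.44. Those last 3 were not called with plant-matched scaling, where the final pair stood at 0.06 and 0.02. Cluster-71316.154726 was not called: it had 15.7, 14.8 and 6.99 CPM in salt against 15.6, 14.1 and 17.7 CPM in control, so only salt 3 was outside the range of the rest. The tenth ZAT10 cluster, Cluster-71316.110155, had counts in 1 control library alone. Of the 10, 8 had a protein of Mikania micrantha, another plant of the daisy family, as best NR match and 2 a chrysanthemum protein. Clusters this alike can be copies, alleles or fragments of 1 gene that divide its reads, so their number is not a number of genes.

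ZAT11 was higher in salt. In Arabidopsis ZAT11 responds to reactive oxygen and was reported in nickel tolerance and programmed cell death. Its 6 clusters summed to 128, 105 and 103 CPM in salt and to 85.6, 86.0 and 81.7 CPM in control. All salt libraries were above all control libraries, with salt 1 the highest. The sum rose by 0.41 in log2 terms (standard error 0.09, adjusted p = 0.0024 by edgeR), and by 0.87 with plant-matched scaling (adjusted p = 9e-06).

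Most of that sum was Cluster-71316.170164, with 926 bases, which held 64.5% of ZAT11 counts in salt and 56.8% in control. It had 82.0, 67.6 and 67.6 CPM in salt and 48.5, 48.5 and 47.0 CPM in control. It was the only member called higher with all-cluster scaling, with a log2 fold change of 0.59 (standard error 0.09, adjusted p = 0.0024 by edgeR), and it stood at 1.05 with plant-matched scaling (adjusted p = 1.2e-04). The other 4 tested ZAT11 clusters had log2 fold changes of 0.05 to 0.37 and were not called. With plant-matched scaling 3 of those 4 were called higher. Among them Cluster-71316.194834 had 9.43, 8.72 and 7.97 CPM in salt and 7.31, 7.80 and 6.77 CPM in control, with no overlap. Cluster-71316.202373, with 399 bases, overlapped: 30.3, 23.1 and 21.5 CPM in salt and 24.9, 25.1 and 22.5 CPM in control. Of the 6 ZAT11 clusters, 5 matched a chrysanthemum protein best and 3 of those the chrysanthemum ZFP2 cDNA.

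Relative to ZAT10, the other abundant names can be read within each library, where no scaling enters. Such a ratio shows unequal change and not which side changed. The count of ZAT11 per count of ZAT10 was 0.342, 0.299 and 0.295 in salt and 0.157, 0.149 and 0.150 in control. The ratio was 2.06 times as high in salt, and the groups did not overlap. ZAT12 per ZAT10 was 0.314 ± 0.0372 in salt and 0.199 ± 0.00929 in control, and ZAT6 per ZAT10 was 0.479 ± 0.0137 in salt and 0.349 ± 0.00256 in control (SD, n = 3 each), again with no overlap. These 3 ratios were chosen with the levels known and are given without a test. As a share of all ZAT and AZF counts, ZAT10 was 46.4 ± 1.58% in salt and 56.8 ± 0.161% in control. ZAT11 was 14.5 ± 0.703% in salt and 8.63 ± 0.232% in control. All members together made up 2.17 ± 0.0609% of the counts on plant-matched clusters of the table in salt and 2.35 ± 0.0180% in control.

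**Figure D3:**
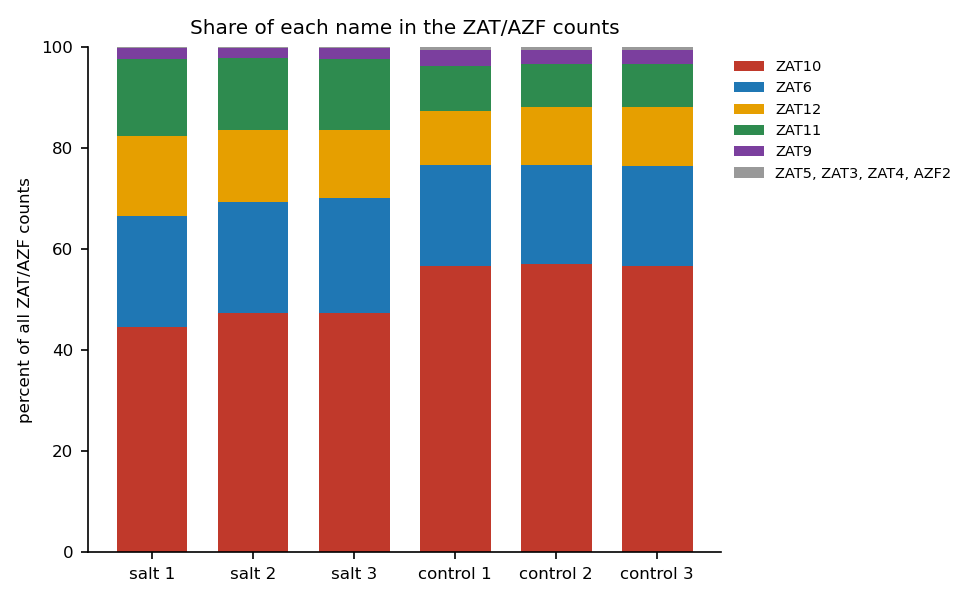
Percent of all ZAT and AZF counts (vertical axis, 0 to 100) held by each name in each library, salt libraries on the left and control libraries on the right. The ZAT10 part is 46.4% on average in salt and 56.8% in control, and the ZAT11 part is 14.5% in salt and 8.63% in control.

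ZAT12 was not called with all-cluster scaling. In Arabidopsis it is induced by many stresses and, in iron-starved roots, its protein binds the iron regulator FIT. Its 4 clusters summed to 134, 106 and 99.4 CPM in salt and to 103, 116 and 113 CPM in control. Salt 1 was above and salt 3 below every control library. The log2 fold change of the sum was 0.03, with a 95% interval of -0.22 to 0.27 (adjusted p = 0.81 by edgeR). With plant-matched scaling the sum was called higher, at 0.49 (adjusted p = 9.1e-04). It was also called higher with DESeq2 size factors. Without salt 1 the all-cluster value was -0.11, not called.

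Cluster-71316.158699, a ZAT12 cluster of 426 bases, had the highest FPKM of any single member, 305 in salt and 332 in control on average. It had 71.7, 52.9 and 52.9 CPM in salt and 54.7, 62.7 and 59.4 CPM in control, with overlap. Its log2 fold change was 0.00 (standard error 0.14, adjusted p = 0.98 by edgeR), and 0.46 with plant-matched scaling (adjusted p = 0.011). Its best NR match carries the name ZAT11. Cluster-71316.148040 and Cluster-71316.148041 may divide reads between them. Together they had 53.5, 47.0 and 40.7 CPM in salt and 42.6, 48.0 and 46.0 CPM in control. The second took 25.2, 34.7 and 12.4% of that sum in salt and 39.6, 32.6 and 26.7% in control.

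ZAT6 gave a direction that depended on the scaling. In Arabidopsis ZAT6 takes part in root growth, phosphate supply and tolerance of salt and cadmium. Its 4 clusters summed to 184, 164 and 167 CPM in salt and to 192, 200 and 190 CPM in control. Salt libraries were all below control libraries, by a small margin. The sum fell by 0.17 in log2 terms (standard error 0.06, adjusted p = 0.027 by edgeR), but rose by 0.29 with plant-matched scaling (adjusted p = 1.4e-04) and by 0.10 with DESeq2 size factors (adjusted p = 0.036). The all-cluster call was also lost without any 1 of 5 of the 6 libraries, salt 1 being the exception.

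Cluster-71316.155477, with 1201 bases, had 105, 99.4 and 94.5 CPM in salt and 113, 113 and 112 CPM in control. Cluster-71316.150448 had 33.4, 30.9 and 31.1 CPM in salt and 38.4, 38.1 and 36.2 CPM in control. Both fell with all-cluster scaling, by 0.18 and 0.24 (adjusted p = 0.037 and 0.029 by edgeR), and both were called higher with plant-matched scaling, at 0.28 and 0.22. The other 2 ZAT6 clusters overlapped between groups and had log2 fold changes of -0.15 and 0.01. All 4 had the chrysanthemum DgZFP cDNA as best nucleotide match, so they may belong to 1 gene.

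ZAT9 fell in salt under both scalings. Its 7 clusters summed to 18.0, 14.4 and 16.8 CPM in salt and to 29.7, 28.8 and 27.7 CPM in control, with no overlap. The sum fell by 0.81 in log2 terms (standard error 0.10, adjusted p = 1.1e-04 by edgeR) and by 0.35 with plant-matched scaling (adjusted p = 0.0069). Cluster-71316.150507, the longest member with 2215 bases, held 93.1% of these counts in salt and 90.1% in control. It had 16.5, 13.6 and 15.7 CPM in salt and 27.0, 26.1 and 24.4 CPM in control, and it fell by 0.76 (standard error 0.11, adjusted p = 0.0016 by edgeR). Its best NR match is named ZAT1, not ZAT9.

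Cluster-71316.113333 had the largest fall among the tested members. It had 0.355, 0.260 and 0.487 CPM in salt and 1.52, 1.77 and 2.36 CPM in control, from counts of 5, 4 and 6 in salt. It fell by 2.34 in log2 terms (standard error 0.42, adjusted p = 0.0041 by edgeR), and by 1.89 with plant-matched scaling (adjusted p = 0.010). The 5 untested ZAT9 clusters went both ways. Cluster-74015.0 and Cluster-74015.1, which the assembly numbers as parts of 1 group, had together counts of 0, 0 and 0 in salt and 9.62, 14.0 and 13.7 in control. The floor was 3 counts over the 3 salt libraries, which covers counting error only. Against it, the pair was at least 9.55-fold lower in salt with all-cluster scaling. That bound would be lower with plant-matched scaling, whose library sizes are smaller in salt and larger in control. This pair was picked after its values were seen. The other such ZAT9 pair, Cluster-111247.0 and Cluster-111247.1, had together counts of 6, 3 and 3 in salt and 8.38, 0 and 2.33 in control, which overlap. Cluster-71316.2888 had counts of 10, 5 and 5 in salt and 1, 4 and 0 in control.

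The 10 ZAT5 clusters were sparse and all had a lower mean CPM in salt. Together they had 8, 25 and 11 counts in salt and 85, 85 and 58 in control, or 0.568, 1.62 and 0.894 CPM in salt and 4.99, 4.19 and 3.40 CPM in control. The groups were well apart. The sum fell by 2.00 in log2 terms (standard error 0.37, adjusted p = 0.0011 by edgeR) and by 1.53 with plant-matched scaling (adjusted p = 0.0078). With all-cluster scaling, no salt library reached a control library for 7 of the 10, the tested one and 6 of the 9 too sparse to test. Plant-matched scaling did not keep this for all 7. There Cluster-70701.0 overlapped, with 11 counts over 12.7 M in salt 2 and 18.2 over 24.4 M in control 2. Among all 5460 untested clusters of the regulator set, with or without plant matches, the lack of overlap held for 11.6% with all-cluster scaling.

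The most abundant, Cluster-70701.0, had 0.142, 0.714 and 0.244 CPM in salt and 0.938, 0.896 and 1.05 CPM in control. It was not called, with a log2 fold change of -1.35 (standard error 0.62, adjusted p = 0.11 by edgeR), and salt 2 was the highest salt library. Without salt 2 it was called, at -2.28 (adjusted p = 0.029). Cluster-71316.69541 and Cluster-71211.0 had counts of 0 in every salt library. In control the first had 16.6, 2.88 and 9.35 counts and the second 6, 10.8 and 3.03. Against the same floor they were at least 7.38-fold and 5.09-fold lower in salt with all-cluster scaling. Both bounds would also be lower with plant-matched scaling.

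ZAT3, ZAT4 and AZF2 were near the limit of detection and were not tested. AZF2 is known in Arabidopsis as a repressor induced by salt and abscisic acid in roots. Its only cluster, Cluster-66937.1, had counts of 2, 3 and 0 in salt and 2, 6 and 7 in control. The 2 ZAT3 clusters had together 4, 2 and 3 counts in salt and 8, 12 and 13.8 in control, almost all on Cluster-107142.0. The 2 ZAT4 clusters, led by Cluster-80437.0, had together 10, 3 and 2 counts in salt and 6, 2 and 3 in control. ZAT3 was lower in every salt library than in any control library, while AZF2 and ZAT4 overlapped. Among all 21 untested members the highest count in any library was 16.6, 17 had a lower mean CPM in salt and 4 a higher one. At 0 in every salt library were 7 of the 46 members, and at 0 in every control library were 0. The shares of all clusters with such values are not given here, and salt libraries held fewer fragments on average. These counts therefore describe the members only and set no trait of theirs apart.

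**Figure D4:**
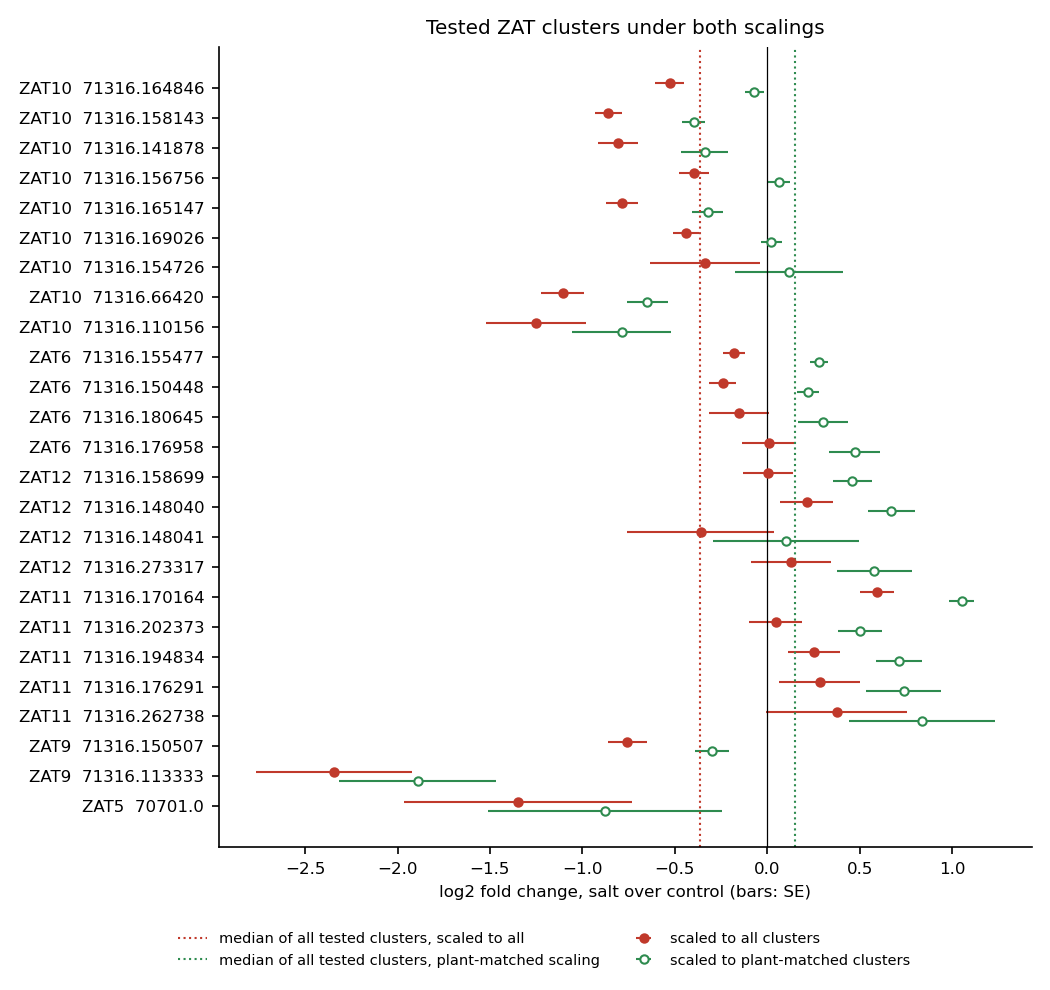
Log2 fold change of salt over control (horizontal axis, bars are SE) for the 25 tested ZAT clusters, listed by name and, within a name, by mean CPM. Filled points are scaled to all clusters and open points to plant-matched clusters, and dotted lines mark the median of all tested clusters under each scaling, -0.37 and 0.15. Open points lie to the right of filled ones by about the same distance for each cluster.

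The rest of the C2H2 family moved differently as deposited, but much of it did not match plants. Of 672 other C2H2 clusters 282 were tested, with 121 called higher and 47 lower and a median log2 fold change of 0.67. With plant-matched scaling 152 were called higher and 29 lower of 285. Only 114 of the 672 had flowering-plant matches. Among the 76 of those that were tested 8 were called higher and 28 lower, with a median of -0.53, or 14 higher and 20 lower of 73 with a median of -0.08 with plant-matched scaling. For all 3812 tested plant-matched clusters of the table the counts were 458 higher and 1360 lower, with a median of -0.63. With plant-matched scaling they were 799 higher and 781 lower of 3747, with a median of -0.14.

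Regulators known to act with ZAT proteins in Arabidopsis were read from a list of heat shock, WRKY, DREB and related names. Of 130 such clusters 66 were tested, with 5 called higher and 33 lower, or 9 higher and 20 lower with plant-matched scaling. The shares over all tested clusters were 23.9% higher and 29.3% lower, or 33.2% and 16.9% with plant-matched scaling. For tested plant-matched clusters other than members they were 12.1% higher and 35.6% lower, or 21.2% and 20.8% with plant-matched scaling. The number of plant-matched clusters among the 66 is not given here. Without control 3 the higher calls among the stress regulators were 3. WRKY40 is a repressor in stress and abscisic acid signalling. Of its 5 tested clusters 1 was called higher and 0 lower, or 2 higher with plant-matched scaling. The leading one, Cluster-71316.180529, had 329, 306 and 291 CPM in salt and 185, 187 and 167 CPM in control. It rose by 0.78 on the log2 scale (adjusted p = 3.8e-04 by edgeR) and by 1.24 with plant-matched scaling. WRKY33, an activator in defence, had 229, 207 and 212 CPM in salt and 295, 316 and 304 CPM in control for Cluster-71316.141942. That cluster fell by 0.50 (adjusted p = 8.8e-04 by edgeR), which was lost with plant-matched scaling, at -0.04. Of the 23 tested WRKY33 clusters 11 were called lower and 0 higher, or 6 lower with plant-matched scaling.

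DREB2A, an activator of drought and heat genes, fell in all 4 tested clusters under both scalings. Its leading Cluster-71316.173520 had 12.1, 12.3 and 14.1 CPM in salt and 39.5, 36.8 and 34.7 CPM in control, with a log2 fold change of -1.53 (adjusted p = 1.3e-04 by edgeR). FIT, the iron uptake regulator, fell in all 5 tested clusters under both scalings. Its Cluster-71316.42838 had 0.142, 0.195 and 0.569 CPM in salt and 3.17, 3.60 and 2.58 CPM in control. Every salt library was far below the controls, from counts of 2, 3 and 7 in salt. The log2 fold change was -3.37 (adjusted p = 0.0027 by edgeR) and -2.90 with plant-matched scaling. Over all settings run it lay between -4.14, without salt 3, and -2.30.

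The other names of the list gave smaller or unsettled values. HSFA4A, a heat shock factor upstream of ZAT12 in Arabidopsis, had a log2 fold change of 0.59 for Cluster-71316.113637 (adjusted p = 0.026 by edgeR), but the call was lost without control 1 or control 3. Of the 5 tested HSFA4A clusters 1 was called higher and 3 lower, or 1 and 0 with plant-matched scaling. WRKY70 stood at -0.49 for Cluster-71316.149581 (adjusted p = 0.015), a call that was lost without control 1 or control 3 and with plant-matched scaling. Of the 19 tested WRKY70 clusters 2 were called higher and 10 lower, or 3 and 5 with plant-matched scaling. The leading clusters of DREB1A, DREB1B and MBF1C were not called, at 0.21 for Cluster-71316.160334, -0.36 for Cluster-71316.183664 and 0.04 for Cluster-71316.54164. With plant-matched scaling both DREB1A clusters were called higher, the leading one at 0.66. The other tested DREB1B cluster was called higher under both scalings. HSFA4C was too sparse to test, with counts of 7, 9 and 6 in salt and 0, 0 and 1 in control, which do not overlap.

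Corepressors through which EAR repressors act were represented by TPL and the SIN3-like names SNL1 to SNL5. Of 32 clusters 12 were tested, with 11 called lower and 1 higher, and 8 of 11 were called lower with plant-matched scaling. Over all tested clusters 23.9% were called higher and 29.3% lower, or 33.2% and 16.9% with plant-matched scaling. For tested plant-matched clusters other than members the shares were 12.1% higher and 35.6% lower, or 21.2% and 20.8% with plant-matched scaling. The name SNL2 covers 9 of the 12, which may be copies or fragments of 1 gene, so the count rests mostly on 1 name. SNL2 fell in all 9 tested clusters, 7 of them also with plant-matched scaling. Its Cluster-71316.179999 had 4.54, 3.12 and 3.90 CPM in salt and 16.4, 16.3 and 16.2 CPM in control, with a log2 fold change of -2.08 (adjusted p = 2.4e-04 by edgeR). SNL4 stood at -1.58 for Cluster-71316.233315 (adjusted p = 0.0068). SNL1 stood at -1.37 for Cluster-71316.86031 (adjusted p = 0.021), a call lost with plant-matched scaling and without salt 2 or control 2. The 1 higher cluster, Cluster-71316.4932, was named SNL5 but had an oomycete, alga or protist as best NR match, with 1.42, 2.08 and 1.38 CPM in salt and 0, 0.0986 and 0.176 CPM in control. TPL and SNL3 were too sparse to test.

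In the authors' deposited table, a total of 4 of the 46 members carry the call DOWN and 0 the call UP. The whole table of 10744 clusters has 1098 DOWN and 1446 UP, so the DOWN share of the members is near that of the table. The authors' deposited table gives log2 ratios of salt over control of -5.33 for Cluster-71316.69541 (ZAT5), -2.31 for Cluster-71316.113333 (ZAT9), -1.18 for Cluster-71316.110156 and -1.04 for Cluster-71316.66420 (both ZAT10). For the main ZAT11 cluster, Cluster-71316.170164, the authors' deposited table has a log2 ratio of 0.66 with a q value of 5.84e-10 and no UP call. For Cluster-71316.158143 (ZAT10) the authors' deposited table has -0.79 with a q value of 1.99e-20 and no DOWN call. The calls made here set no minimum fold change, so they are not like the authors' calls.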

How the data were processed

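Root RNA of 3 salt and 3 control libraries was sequenced on an Illumina HiSeq after TruSeq preparation, per the labels. Per the submitters' processing notes, Bowtie2 2.0.6 and TopHat2 2.0.12 were used, with no role named. The assembler, counter and annotation tools are not given in these sources. The authors deposited expected counts (65.3% of them not whole) and FPKM for 10744 unique clusters of regulator families, with Swiss-Prot match scores, cluster lengths in bases, log2 ratios and q-values, per the file headers. They also deposited FPKM of all 469059 clusters. No genome was used here.

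Expected counts were rounded. The table holds part of each library, so depth was recovered by regressing count over FPKM on cluster length, for clusters with at least 200 counts and 1000 bases. Depth times TMM factors from FPKM of all clusters gave the effective library sizes, 12.3 to 20.3 M, for which a count of 0 allows up to 3 counts or 0.148 to 0.244 CPM. Clusters passing filterByExpr were tested with edgeR 4.0.16 in R 4.3.3. The code was also run on counts simulated with edgeR's fitted dispersions and the same library sizes. Such a run cannot check the scaling or the division of reads between clusters. Sums per Swiss-Prot name were tested with edgeR in the same way over the whole table, where clusters without a gene name entered singly. The SE is the one implied by the F statistic. The p-values rest on the spread between the 3 libraries of a group, which the labels call biological replicates. Libraries of a group differed beyond sampling noise, with chi-square per degree of freedom of 5.29 to 8.52.

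Named clusters are the most abundant of each name over all 6 libraries, called members with at least a 2-fold change, and the most abundant cluster of each listed regulator or corepressor. Clusters named beyond that rule were chosen after their values were seen. Members and lists were chosen with earlier results of these data known. Alternatives were DESeq2 1.42.0, limma 3.58.1 on log2(FPKM + 1) and log2(FPKM + 0.1), other scalings and filters, a replicate block, and leaving out 1 library at a time.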

Additional observations from a re-analysis of the deposited data

How the results depend on the processing

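Scaling changed most. The median change over the tested set moved by 0.51 (log2) with plant-matched TMM, 0.30 with DESeq2 size factors, 0.10 with the table's column sums and -0.14 without a composition factor. Calls over the table became 1745 higher and 891 lower with plant-matched TMM and 1526 and 1143 with DESeq2 size factors, against 1261 and 1549. Higher members became 9 with plant-matched TMM and 3 with DESeq2 size factors, against 1, and lower members 6 with plant-matched TMM, against 12. Higher name sums became 3 in both, against 1. Lower calls in the rest of C2H2 became 29 and stress regulators became 9 higher and 20 lower with plant-matched TMM. With DESeq2 size factors 9 stress regulators were higher, against 5.

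Limma on all 184306 clusters with FPKM of at least 1 in 3 libraries, a larger set than the regulator table, called 42096 higher and 52380 lower with a pseudocount of 1 and 39820 and 45699 with 0.1. It called 3 stress regulators higher with 0.1. Replicate numbers did not pair libraries: deviations of same-numbered salt and control libraries correlated at 0.037, 0.030 and 0.014. With a replicate block 1 member was called higher and 10 lower, 3 stress regulators higher and 7 corepressors lower, against 11. Over the whole table the block gave 1026 higher and 1118 lower of 5284 clusters. Leaving out 1 library at a time gave 3 to 5 higher stress regulators, the 3 without control 3, and 10 to 12 lower members. Lower calls over the whole table then ranged from 1109 of 5751 clusters, without control 2, to 1638 of 6010, without salt 1.

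Directions turned for values near 0. With plant-matched TMM they became 0.29 for the ZAT6 sum, 0.28, 0.22 and 0.30 for ZAT6 clusters Cluster-71316.155477, Cluster-71316.150448 and Cluster-71316.180645, 0.064, 0.021 and 0.12 for ZAT10 clusters Cluster-71316.156756, Cluster-71316.169026 and Cluster-71316.154726, 0.10 for ZAT12 Cluster-71316.148041 and 0.11 for DREB1B. With DESeq2 size factors the ZAT6 sum was 0.10 and the same 3 ZAT6 clusters 0.095, 0.035 and 0.12. Without a composition factor the ZAT12 sum was -0.093, ZAT6 Cluster-71316.176958 -0.11, ZAT11 Cluster-71316.202373 -0.077, ZAT12 Cluster-71316.158699 -0.12 and MBF1C -0.082. With limma, at pseudocounts of 1 and 0.1, ZAT6 Cluster-71316.176958 was -0.12 in both, ZAT11 Cluster-71316.202373 -0.10 in both, ZAT12 Cluster-71316.158699 -0.14 in both, ZAT12 Cluster-71316.273317 -0.0093 and -0.010, and MBF1C -0.14 and -0.17. With the replicate block ZAT12 Cluster-71316.158699 was -0.0087 and MBF1C -0.040. Leaving out 1 library gave -0.11 to 0.11 for the ZAT12 sum, -0.087 to 0.11 for ZAT6 Cluster-71316.176958, -0.12 to 0.14 for ZAT11 Cluster-71316.202373, -0.16 to 0.080 for ZAT12 Cluster-71316.158699, -0.074 to 0.25 for ZAT12 Cluster-71316.273317 and -0.32 to 0.32 for MBF1C. Beyond the scalings' construction the cause was not tested.

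ZAT10, ZAT9 and ZAT5 sums stayed called lower and the ZAT11 sum called higher under every setting run for them. Depth limits ZAT3, ZAT4, ZAT5 and AZF2, whose clusters hold few counts.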
